A study of Mus musculus with 8 samples.

Results

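Translesion synthesis lets a replication fork pass a damaged base. The sliding clamp PCNA holds the replicative polymerase on DNA, and when the fork stalls the ubiquitin ligase Rad18 attaches ubiquitin to the clamp, which favours specialised polymerases of low fidelity. Polymerases eta (Polh), iota (Poli) and kappa (Polk) and the deoxycytidyl transferase Rev1 insert bases opposite lesions, polymerase zeta with its catalytic subunit Rev3l extends from them, and Primpol restarts synthesis beyond the lesion with a new primer. These 8 genes were taken by symbol from the 55487 genes of the deposited expression table, and all 8 were present in it.

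RNA was measured by sequencing in mouse 2-cell embryos. The 4 knockdown-labelled libraries came from zygotes injected with CasRx, a nuclease that is directed to RNA by a guide, together with a guide against Polq, and are labelled with the genotype polq knockdown. The 4 control libraries came from zygotes injected with CasRx alone and are labelled wild type. Both groups were injected 20 h after hCG, the hormone that triggers ovulation, and each library was prepared from 5 pooled embryos collected 10 h after injection. The series text calls the 4 pools of a group biological replicates, no control guide is named for the CasRx-alone embryos, and no strain is given in the labels used here.

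Depth differed between the groups. The knockdown-labelled libraries held 4726159, 8627403, 8100969 and 33650050 counts in replicates 1 to 4, against 33311665, 35007614, 43748621 and 40702806 counts in control replicates 1 to 4. All 10 markers of the 2-cell stage and all 10 of the maternal oocyte were expressed at levels that could be tested. Of 10 cumulus cell markers, 6 had no count in any library, Has2, Fshr and Foxl2 among them. The list summed to 0.793 to 10.7 counts per 1000000 (CPM) in knockdown-labelled and 0 to 21.5 CPM in control libraries. Tnfaip6 reached 16.2 CPM in control replicate 2 and 10.7 CPM in knockdown-labelled replicate 4, and Cyp19a1 reached 5.23 CPM in control replicate 2. Of 7 sperm markers, 6 had no count in any library, while Prm2 reached 7.34 CPM in knockdown-labelled replicate 1 and 7.06 CPM in control replicate 2. Polq, the targeted gene, was fitted at 80.4% of control (95% interval 47.8% to 135%) and overlapped between the groups. For this reason a library is called by its label, and every log2 fold change is knockdown-labelled over control.

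Among the 8 genes, the clamp gene Pcna dominated in every library, Polh and Rev3l were present at moderate and even levels, and Polk and Poli were close to absent in most libraries. None differed between the groups beyond the spread of the libraries. Of the 7 that could be tested, 0 passed the edgeR quasi-likelihood test at an adjusted p under 0.05, beside 0 of 13146 genes overall (0%). The count of members at an unadjusted p under 0.05 was 0 with edgeR, 0 with DESeq2 and 0 with limma-voom, where edgeR gave 2.81% of all tested genes, DESeq2 4.29% and limma-voom 6.56%. In pools of whole embryos, fewer cells carrying an RNA and less of that RNA per cell cannot be told apart.

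**Figure D1:**
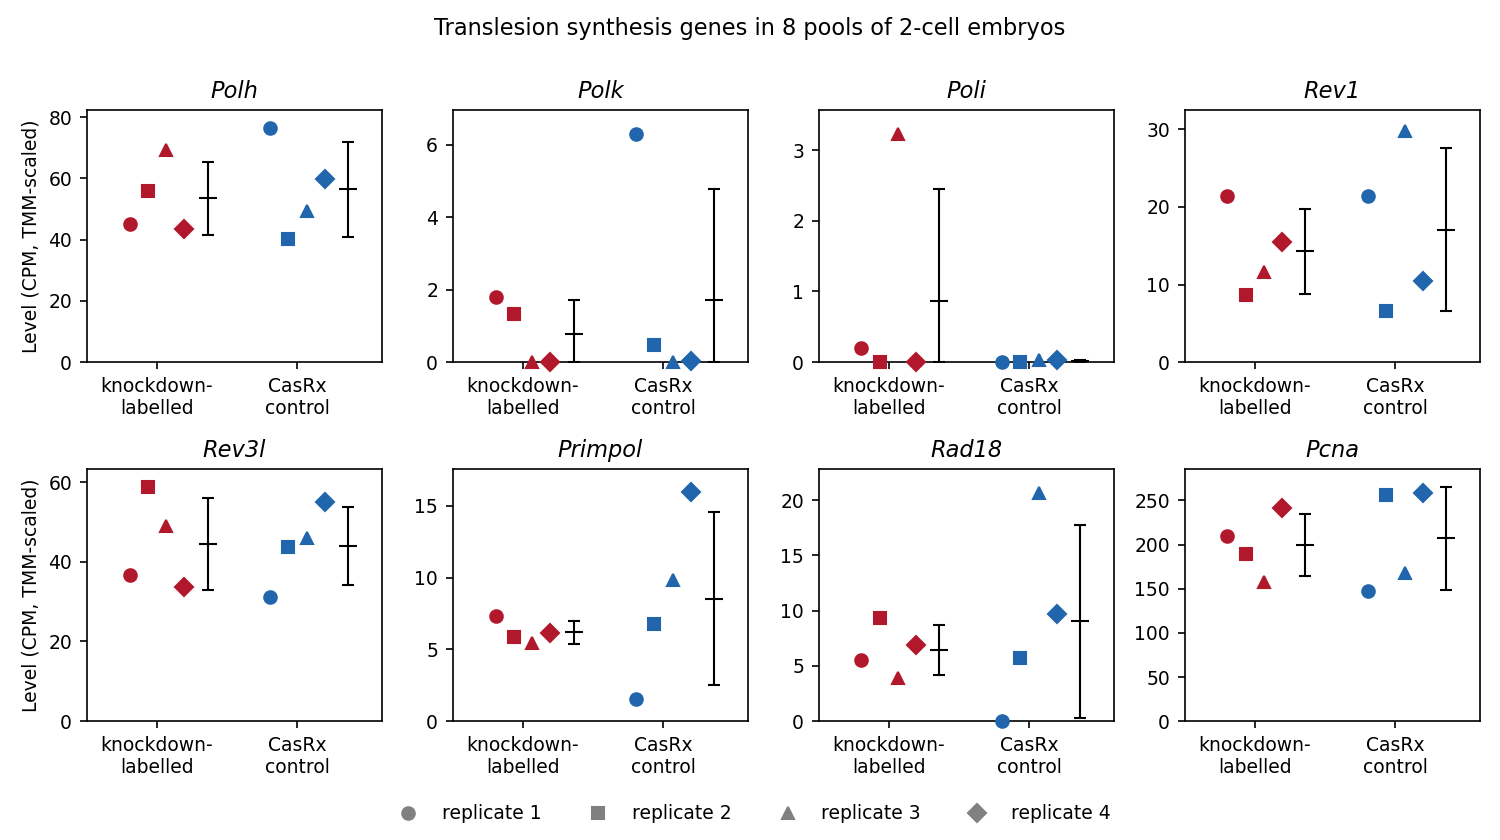
Levels of the 8 translesion synthesis genes in CPM (TMM-scaled, linear axes from 0), with the 4 knockdown-labelled pools left and the 4 CasRx control pools right in each panel. Symbols mark the replicate number within a group, and horizontal ticks with bars give the mean ± SD of 4 pools, with the lower bar ended at 0. The groups overlap in every panel, and control replicate 1 holds the highest Polk level (6.30 CPM) and no Rad18 count.

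Reads of some of these genes can be confused with those of other loci, which bears on how their values are read. Pcna has a processed pseudogene, Pcna-ps2, on chromosome 19 from 9283380 to 9284160 (GRCm38). Over 781 aligned bases the pseudogene differed from the Pcna coding sequence at 6 positions (99.2% identical). The following 90 bases, from position 88 of the coding sequence, are shown because no other ungapped stretch of this length held more of the differing bases, and still only the 2 in capitals tell the copies apart.
Pcna coding sequence: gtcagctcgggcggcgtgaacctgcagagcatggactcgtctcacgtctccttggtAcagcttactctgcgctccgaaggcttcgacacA
Pcna-ps2: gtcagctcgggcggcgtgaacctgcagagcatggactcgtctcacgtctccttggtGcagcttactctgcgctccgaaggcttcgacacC
Reads assigned to Pcna-ps2 were 9, 14, 13 and 44 in knockdown-labelled replicates 1 to 4 and 44, 40, 47 and 77 in control replicates 1 to 4. That was 0.571% to 0.951% of the Pcna reads in knockdown-labelled libraries and 0.493% to 0.916% in controls. 
Rev1 and Primpol share exonic bases with genes on the opposite strand, and the strand setting of the counting was not stated in the sources used here. Rev1 shares 1643 exonic bases with Eif5b, a translation initiation factor, and its estimated counts were not whole numbers in any of the 8 libraries. Primpol shares 1069 with Cenpu, a centromere protein, and its counts were not whole in 7 of 8. The fractions of paired genes completed whole numbers to within rounding. In knockdown-labelled replicate 1 Rev1 had 108.41 and Eif5b 956.59 counts, and in knockdown-labelled replicate 2 Primpol had 47.67 and Cenpu 176.33. Reads were thus divided between genes of opposite strands, and the size of the shared part was not tested. The other 6 genes had whole counts throughout. Values of Rev1 and Primpol are therefore uncertain, and the levels of their neighbours are given beside them.

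Pcna encodes the clamp on which the other proteins assemble. It lies on the minus strand of chromosome 2 from 132249162 to 132253314, and is protein-coding with 5 exonic regions. In knockdown-labelled replicates 1 to 4 it had 209.6, 189.8, 158 and 242 CPM, against 147, 256, 168 and 259 CPM in control replicates 1 to 4. The highest and the lowest library were both controls, and all 4 knockdown-labelled libraries lay between them. The means were 199.7 ± 35.1 CPM in knockdown-labelled and 207 ± 58.2 CPM in control libraries (SD, n = 4 each). The fitted level was 96.4% of control with a 95% interval from 67.0% to 139% (log2 fold change −0.05, SE 0.23, edgeR adjusted p = 1.0). This rests on 1057 to 7710 counts per knockdown-labelled and 4805 to 11122 per control library. The sign turned without knockdown-labelled replicate 3 (0.044) or control replicate 2 or 4 (0.066 and 0.071).

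Rad18, the ligase that marks the clamp, lies on the minus strand of chromosome 6 from 112619850 to 112696686, with 14 exonic regions. Knockdown-labelled replicates 1 to 4 had 28, 77, 34 and 220 counts (5.55, 9.36, 3.93 and 6.89 CPM). Control replicates 1 to 4 had 0, 182, 903 and 417 counts (0, 5.73, 20.7 and 9.71 CPM). Both ends of the range were controls: no read was assigned in control replicate 1, which allows a level of up to 0.0917 CPM (3 counts, counting error only), while control replicate 3 exceeded every other library. The means were 6.43 ± 2.30 CPM in knockdown-labelled and 9.02 ± 8.72 CPM in control libraries (SD, n = 4 each), with a log2 fold change of −0.49 (SE 1.29, edgeR adjusted p = 1.0). Its interval, from 9.72% to 524% of control, left a large change in either direction undetectable, and without control replicate 3 the log2 fold change was 0.32. A library without a count was common at this abundance: 25.9% of the 2049 tested genes with a mean of 5 to 10 CPM had at least 1, and control replicate 1 was at 0 in 4.69% of them.

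Polh encodes polymerase eta, which copies past ultraviolet photoproducts accurately and whose loss causes a variant form of xeroderma pigmentosum in humans. The gene lies on the minus strand of chromosome 17 from 46171355 to 46202645, with 11 exonic regions. It was the most abundant of the specialised polymerases. Knockdown-labelled replicates 1 to 4 were at 45.02, 56.01, 69.3 and 43.6 CPM, against 76.6, 40.2, 49.5 and 59.7 CPM in control replicates 1 to 4. The range of the controls enclosed all 4 knockdown-labelled libraries. Means were 53.5 ± 11.9 CPM and 56.5 ± 15.6 CPM in knockdown-labelled and control libraries (SD, n = 4 each), from 227 to 1390 and from 1276 to 2565 counts. The fitted level was 94.7% of control, with an interval from 61.5% to 146% (log2 fold change −0.08, SE 0.28, edgeR adjusted p = 1.0). Without control replicate 1, its highest library, the log2 fold change was 0.11, and without knockdown-labelled replicate 4 it was 0.0037.

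Polk encodes polymerase kappa, which bypasses bulky adducts on guanine and also extends mispaired ends. It lies on the minus strand of chromosome 13 from 96480690 to 96542579, with 16 exonic regions. Counts were 9, 11, 0 and 0 in knockdown-labelled replicates 1 to 4 and 206, 15, 0 and 1 in control replicates 1 to 4. In CPM these were 1.78, 1.34, 0 and 0 in knockdown-labelled and 6.30, 0.473, 0 and 0.0233 in control libraries. Only control replicate 1 carried more than 15 counts, and the other 7 libraries, with 0 to 15 counts, included all 4 of the knockdown-labelled group. The test returned a log2 fold change of −1.15 (SE 2.23, edgeR adjusted p = 1.0), which turned to 2.20 when control replicate 1 was left out, so that a single pool set the direction. Of the 2112 tested genes with a mean of 0.5 to 2 CPM, 72.3% also had at least 1 library at 0.

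Poli encodes polymerase iota, a close paralogue of Polh that inserts bases with unusually low accuracy. The gene lies on the minus strand of chromosome 18 from 70508680 to 70530620, with 12 exonic regions. It did not pass the filter on low counts and was not tested. Counts were 1, 0, 28 and 0 in knockdown-labelled replicates 1 to 4 and 0, 0, 1 and 1 in control replicates 1 to 4. Knockdown-labelled replicate 3 thus held 28 of the 31 counts, a level of 3.24 CPM. A count of 0 allowed up to 0.364 and 0.0940 CPM in knockdown-labelled replicates 2 and 4 and up to 0.0917 and 0.0945 CPM in control replicates 1 and 2. In 7 of 8 libraries Poli thus stayed below 3 counts.

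Rev1 inserts cytosine and acts as a scaffold that brings polymerase zeta to the other Y-family polymerases. The gene lies on the minus strand of chromosome 1 from 38052786 to 38129801, with 25 exonic regions. Knockdown-labelled replicates 1 to 4 were at 21.4, 8.63, 11.6 and 15.4 CPM, against 21.4, 6.58, 29.8 and 10.5 CPM in control replicates 1 to 4. The 4 knockdown-labelled libraries again fell within the range of the controls. The log2 fold change was −0.26 (SE 0.55, edgeR adjusted p = 1.0), or 83.5% of control with an interval from 35.6% to 196%, and 0.15 without control replicate 3. Eif5b, which overlaps Rev1, was at 189.8, 233, 265 and 327 CPM in knockdown-labelled and 221, 171, 236 and 193 CPM in control libraries (log2 fold change 0.31, SE 0.20, edgeR adjusted p = 1.0). Its highest library, knockdown-labelled replicate 4, was not that of Rev1, and its part in the Rev1 values was not tested.

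Rev3l, the catalytic subunit of polymerase zeta, is the one of these polymerases whose loss is lethal to the mouse embryo. It occupies chromosome 10 from 39732118 to 39875211 on the plus strand, with 34 exonic regions. Knockdown-labelled replicates 1 to 4 were at 36.7, 58.8, 48.9 and 33.7 CPM, against 31.2, 43.6, 46.02 and 54.9 CPM in control replicates 1 to 4. The groups interleaved. Rev3l averaged 44.5 ± 11.6 CPM in knockdown-labelled and 43.9 ± 9.80 CPM in control libraries (SD, n = 4 each), and its log2 fold change was 0.02 (SE 0.29, edgeR adjusted p = 1.0). The interval ran from 64.8% to 158% of control. Leaving out 1 library at a time gave values between −0.14 (knockdown-labelled replicate 2 omitted) and 0.14 (control replicate 4 omitted). The value was also negative without knockdown-labelled replicate 3 (−0.029) or control replicate 1 (−0.11).

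Primpol can both start and extend DNA chains, and so lets a fork skip a lesion. The gene lies on the minus strand of chromosome 8 from 46575594 to 46617212, with 16 exonic regions. In knockdown-labelled replicates 1 to 4 Primpol had 7.34, 5.83, 5.43 and 6.14 CPM. Control replicates 1 to 4 were at 1.53, 6.80, 9.84 and 16.0 CPM. All knockdown-labelled values lay close together and inside the wider range of the controls. Means were 6.19 ± 0.821 CPM in knockdown-labelled and 8.54 ± 6.04 CPM in control libraries (SD, n = 4 each), with a log2 fold change of −0.47 (SE 0.75, edgeR adjusted p = 1.0). It was 0.028 without control replicate 4 and −0.81 without control replicate 1. Cenpu, which overlaps Primpol, was at 1.98, 21.4, 26.7 and 22.2 CPM in knockdown-labelled and 26.4, 8.16, 34.6 and 20.2 CPM in control libraries. Control replicate 1 was low in Primpol and not in Cenpu, while knockdown-labelled replicate 1 was low in Cenpu and not in Primpol; the part of shared reads was not tested.

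**Figure D2:**
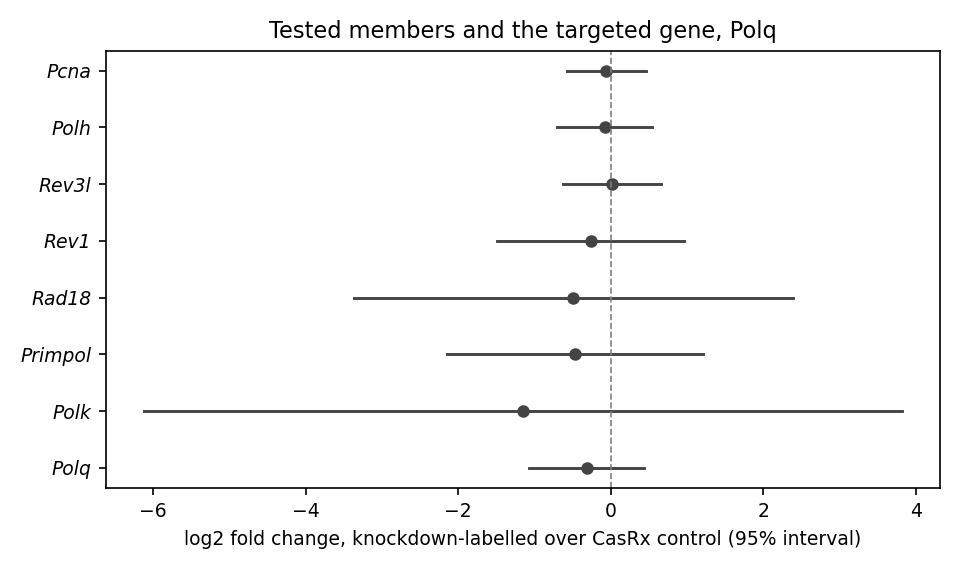
Log2 fold changes (points) with 95% intervals (lines) of the 7 tested members, in the order of their level per length, and of Polq below them, knockdown-labelled over control, from the edgeR fit across all genes. Every interval includes 0, from the narrow one of Pcna (log2 −0.58 to 0.47) to that of Polk (−6.12 to 3.82), which rests on single libraries.

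Of the 7 tested members, 6 had negative values and 1 a positive one, and the median log2 fold change was −0.26. Leaving out 1 library at a time gave medians between −0.52 (control replicate 2 omitted) and −0.054 (control replicate 4 omitted); the median also moved by more than 1.5 times without knockdown-labelled replicate 1 (−0.42) or 2 (−0.14) or control replicate 1 (−0.13) or 3 (−0.14). Over all 13146 genes tested, 53.4% were negative and the median was −0.05. The split was the same with DESeq2 size factors, upper-quartile scaling and library totals alone, and limma-voom gave 4 negative and 3 positive. No member had groups that did not overlap, against 2.98% of all tested genes. DESeq2 called 20 genes of the table (0.154%), none of them a member.

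Levels of different genes were compared as CPM per kb of exonic length, the scale on which a long transcript gains no advantage. Averaged over all 8 libraries, the order was Pcna at 84.8, Polh at 9.24, Rev3l at 3.33, Rev1 at 2.54, Rad18 at 1.33, Primpol at 1.15, Polk at 0.223 and Poli at 0.108 CPM per kb. The upper steps were firm: Pcna lay above Polh in 8 of 8 libraries, by 9.18-fold on average, and Polh above Rev3l in 8 of 8, by 2.78-fold. The size of these folds depends on the length used. Exonic length was 2400 bases for Pcna, 5950 for Polh and 13293 for Rev3l, against 1518, 3238 and 10789 for the longest transcript. Further down, the order of neighbours varied from library to library. Rev3l lay above Rev1 in 5 of 8 libraries and Rad18 above Primpol in 3 of 8, although the mean of Rad18 was the higher. Rev1 exceeded Rad18 in 7 of 8 and Primpol exceeded Polk in 7 of 8, the exceptions being knockdown-labelled replicate 2 and control replicate 1. Polk lay above Poli in 4 libraries and tied with it at 0 in 1. Rad18, the enzyme that modifies the clamp, was thus present at 1.11 ± 0.396 CPM per kb in knockdown-labelled and 1.56 ± 1.504 CPM per kb in control libraries, beside 83.2 ± 14.6 and 86.4 ± 24.3 CPM per kb for the clamp itself (SD, n = 4 each).

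**Figure D3:**
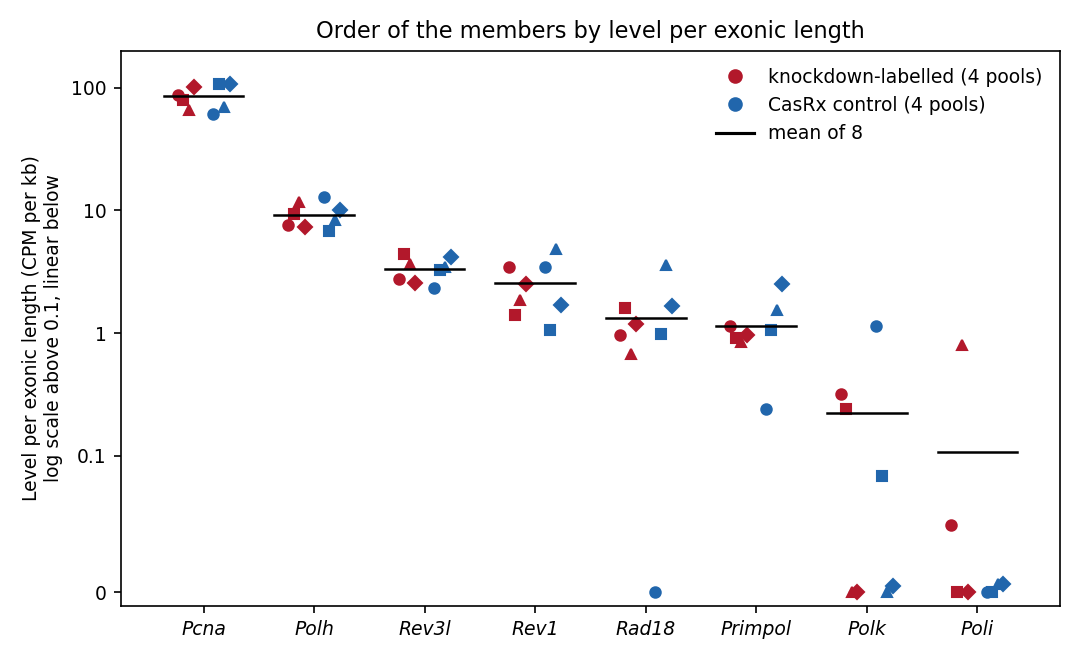
Level per exonic length (CPM per kb, logarithmic above 0.1 and linear below) of the 8 members in all libraries, knockdown-labelled pools left and control pools right of each position, with symbols for the replicate number and a line at the mean of 8. Pcna (61.2 to 107.9) and Polh (6.76 to 12.9) occupy separate bands, while Rad18, Primpol, Polk and Poli overlap.

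The members differed in how evenly they were spread over the libraries. The coefficient of variation over all 8 libraries was 22.0% for Pcna, 22.4% for Rev3l and 23.5% for Polh. It was 50.6% for Rev1, 56.8% for Primpol, 78.4% for Rad18 and 174% for Polk. Rev3l was steadier than most genes of its abundance: at 20 to 50 CPM the median coefficient of variation was 40.3% and the lower quartile 32.0%. Polh stood below the lower quartile of 24.5% for genes at 50 to 100 CPM, and the other tested members except Polk lay between the quartiles of their class. Polk exceeded the upper quartile of 132% at 0.5 to 2 CPM.

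One control pool accounted for many of the extremes. Control replicate 1 was the highest or lowest library for 6 of the 8 genes, with the highest Polh and Polk and the lowest Rev3l, Primpol, Rad18 and Pcna. Over the 8098 tested genes whose mean reached 5 CPM it was extreme in 27.3%, and the library extreme most often there was control replicate 2 (33.7%). Polk and Poli averaged less than 5 CPM and lie outside that class. The correlation of control replicate 1 with the other libraries across genes had a median of 0.85 on log2(CPM + 1), within the range of 0.83 to 0.86 of all 8; genes are not independent replicates. This feature was singled out after the values were seen.

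Around these 8 genes, 33 partners of damage tolerance in 4 lists were followed, of which 32 could be tested. By edgeR, 0 passed the test in either direction, and 0 had an unadjusted p under 0.05; the corresponding shares of all tested genes were 0% and 2.81%. With DESeq2 the unadjusted count was 2 (Chtf18 and Rpa2) and with limma-voom also 2 (Dscc1 and Rpa2), none past adjustment, beside 4.29% and 6.56% of all tested genes with these tools. The log2 fold changes were 21 negative and 11 positive with a median of −0.17. In Chtf18 alone the groups did not overlap, with the knockdown-labelled libraries lower. Of all tested genes, 2.98% had groups that did not overlap in either direction, and 1.54% with the knockdown-labelled libraries lower.

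Rev3l works with Mad2l2, Pold2 and Pold3 in polymerase zeta. Mad2l2, the adaptor that links Rev3l to Rev1, was at 38.6 ± 11.8 CPM in knockdown-labelled and 31.6 ± 17.5 CPM in control libraries (log2 fold change 0.29, SE 0.44). Pold2 was not tested: it had 4, 0, 0 and 67 counts in knockdown-labelled replicates 1 to 4 and 2, 0, 0 and 0 in control replicates 1 to 4, so that knockdown-labelled replicate 4 held nearly all. Pold3 was at 25.6 ± 7.23 and 28.3 ± 6.64 CPM in knockdown-labelled and control libraries. Poln, a further bypass polymerase, was at 0.658 ± 0.451 CPM and 0.261 ± 0.191 CPM and shares 108 exonic bases with Haus3 on the same strand. Its 2.53-fold estimate had an interval from 0.354 to 18.2.

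The enzymes that add and remove ubiquitin on the clamp, with their partners, ranged from 10.1 CPM for Hltf to 285 CPM for Ube2n, averaged over the 8 libraries. All 10 were tested, 7 with a negative and 3 with a positive log2 fold change (median −0.18). Ube2a and Ube2b, the paired conjugating enzymes that work with Rad18, were at 88.9 ± 20.5 and 229.8 ± 44.03 CPM in knockdown-labelled libraries and at 99.5 ± 7.61 and 263 ± 60.4 CPM in controls. Ube2n, which builds the chains that direct error-free bypass, was the most abundant of these 10 at 256 ± 109 CPM in knockdown-labelled and 315 ± 95.1 CPM in control libraries, and its ligase Shprh at 13.8 ± 5.82 and 20.02 ± 8.05 CPM. Usp1, which removes ubiquitin from the clamp, was at 199.6 ± 38.3 and 177 ± 35.5 CPM.

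Clamp loaders, unloaders and clamp-bound factors were mostly low and variable, with 13 tested, 9 negative and 4 positive (median −0.30). Rfc1, the large subunit of the main clamp loader, was the most abundant at 55.6 ± 12.3 CPM in knockdown-labelled and 60.7 ± 13.03 CPM in control libraries. Chtf18, a subunit of an alternative loader, was at 0.793, 0, 1.04 and 0.658 CPM in knockdown-labelled replicates 1 to 4 and 3.61, 12.1, 4.48 and 1.26 CPM in control replicates 1 to 4. All 4 knockdown-labelled values lay below the lowest control, yet the fit gave a log2 fold change of −3.10 with an interval from −6.21 to 0.018 and an adjusted p of 1.0 (edgeR), from at most 21.3 counts in a knockdown-labelled library. Dscc1, its partner in that loader, had the opposite sign, at 18.2 ± 4.61 CPM and 6.44 ± 8.45 CPM in knockdown-labelled and control libraries (log2 fold change 1.49, SE 1.04). Chtf18 shares 399 exonic bases with Gng13 and Dscc1 199 with an antisense gene, both on the opposite strand. The antisense gene had no count in any library, and Dscc1 counts were whole in all 8. Those of Chtf18 were not whole in 4.

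Of 6 factors of single-stranded DNA and fork remodelling, 2 were above 0 and 4 below on the log2 scale (median −0.11). Rpa2, the middle subunit of the trimer that coats single-stranded DNA, was at 40.3, 56.6, 61.7 and 97.9 CPM in knockdown-labelled replicates 1 to 4 and 59.6, 19.7, 23.2 and 42.4 CPM in control replicates 1 to 4. Only knockdown-labelled replicates 3 and 4 exceeded all controls (log2 fold change 0.83, SE 0.41, edgeR adjusted p = 1.0). The small subunit Rpa3, the most abundant of this list, was at 189 ± 7.60 and 220.2 ± 57.1 CPM in knockdown-labelled and control libraries.

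**Figure D4:**
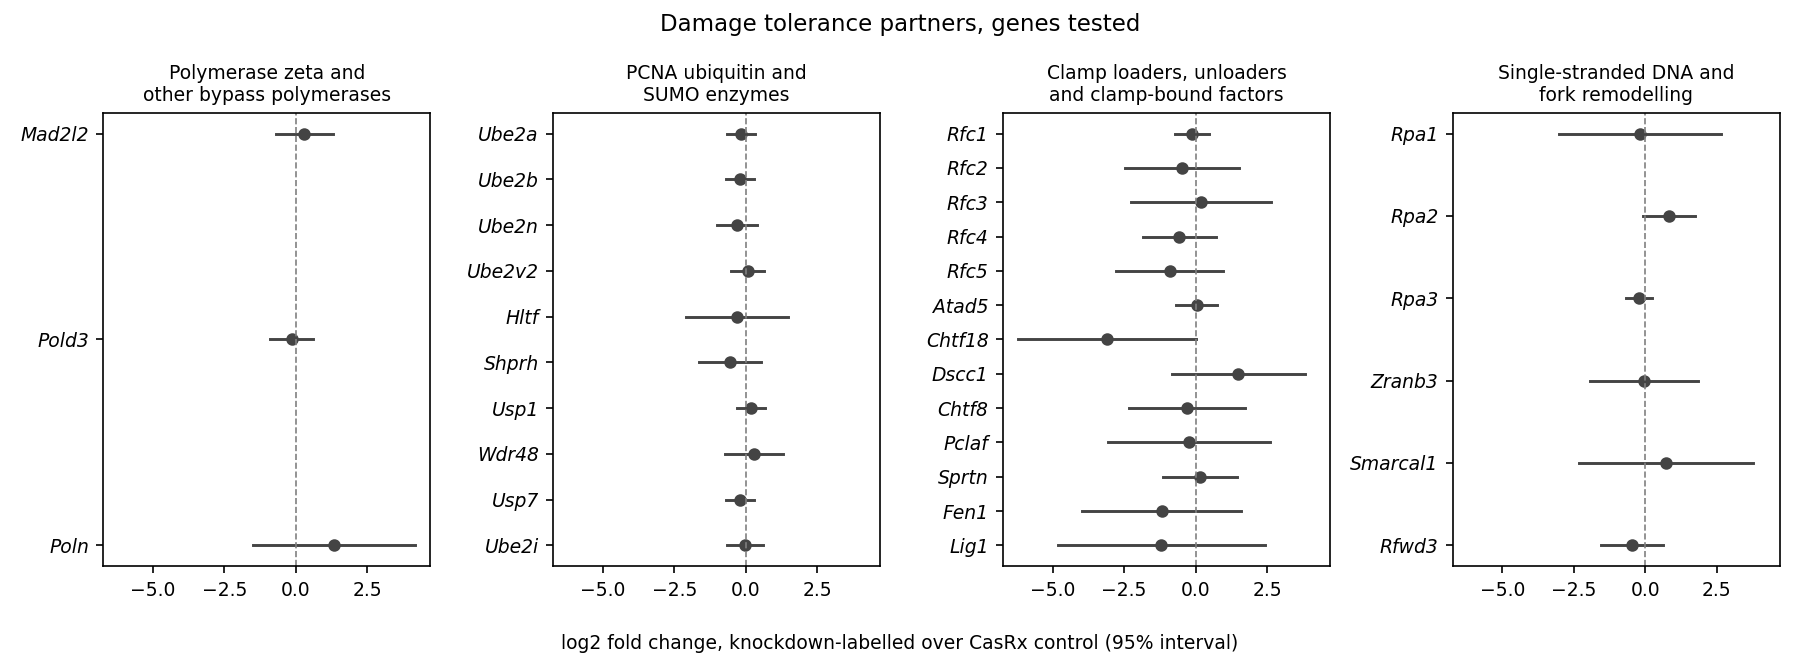
Log2 fold changes (points) with 95% intervals (lines) of the 32 tested partners in 4 panels by role, knockdown-labelled over control, on a common axis. Every interval includes 0, and abundant genes such as Ube2a and Ube2b have the narrow ones, while those of Chtf18, Lig1 and Fen1 span several log2 units.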

How the data were processed

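The table deposited by the authors gives expected counts for each gene and library, without normalisation. RSEM 1.2.28, STAR 2.7.3a, Trim Galore 0.6.10 and the build GRCm38 (mm10) are named per the submitters' processing notes. The annotation release, strand setting and read length were not given in the sources used here. TRIzol extraction and a NEBNext Ultra library kit are stated per the labels' protocols. No molecular identifiers are mentioned, so amplified copies count separately.

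Counts were rounded to whole numbers (4.22% of values altered) and filtered with edgeR's filterByExpr (minimum count 10, minimum total 15), which left 13146 genes, 7 of the 8 members among them. The comparison used the robust quasi-likelihood test of edgeR 4.0.16 with TMM scaling and no term but group (R 4.3.3), with Benjamini-Hochberg adjustment over all genes tested and a threshold of 0.05. A self-test used simulated counts, and power at the spread of these libraries was not judged from it. The common biological coefficient of variation, the spread between pools beyond counting error, was 0.987 in the edgeR fit. It is a single value for all 13146 genes. The median coefficient of variation over the 8 libraries was 111% at 0.5 to 2 CPM and 24.2% at 100 to 500 CPM. With the spread of these pools, 0 calls do not show that no gene changed. CPM values are TMM-scaled, with SDs over 4 libraries, and p-values set the difference between the groups against the spread between these pools. Positions and exonic lengths come from GENCODE M21 (GRCm38), and the Pcna sequences from its transcripts.

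Alternatives were DESeq2 1.42.0, limma-voom (limma 3.58.1), other scalings and filters, a block for the replicate number, thinning to the smallest library and leaving out libraries. Genes named are the members, Polq, and in each partner list the 2 with the smallest p and the most abundant. Pold2, Pold3, Ube2a, Ube2b and Usp1 are added for their roles, and Hltf as the least abundant of its list. Lig1 and Fen1 are named as examples of wide intervals. The Pcna pseudogene, the overlapping genes, some cell type markers and the genes nearest to a member by profile are also named. Members and lists were chosen with earlier results of these data known. A gene of the partner lists is not reported here, and the list counts leave it out.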

Additional observations from a re-analysis of the deposited data

Results flagged for a closer look

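Outlying libraries were sought in 36 sets of 4 levels. These covered the members, Polq and, from each partner list, the 2 genes with the smallest p and the most abundant, in each group. Other named partners were not examined. Of the 36 sets, 2 had a library far from the other 3 of its group. About 1 in 20 such sets is expected to stand out by chance. Polk was at 6.30 CPM in control replicate 1 (206 counts), against 0 to 0.473 CPM in the other controls. Poli was at 3.24 CPM in knockdown-labelled replicate 3 (28 counts), against 0 to 0.198 CPM in the other knockdown-labelled libraries.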

How the results depend on the processing

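The count of called genes was 0 under every edgeR and limma-voom setting and 20 with DESeq2, and no member or partner was called under any setting. Omitting each library in turn gave log2 fold changes from −0.47 to −0.11 for Polq, −0.23 to 0.11 for Polh, −1.95 to 2.20 for Polk, −0.52 to 0.15 for Rev1, −0.14 to 0.14 for Rev3l, −0.81 to 0.028 for Primpol, −0.90 to 0.32 for Rad18 and −0.18 to 0.071 for Pcna. With knockdown-labelled replicate 4 as the only library of its group it was 0.073 for Polq, −0.37 for Rev3l, 0.23 for Pcna and 0.37 for Ube2n. In that setting the median was 0.079 for the partners, −0.37 for the members and −0.36 for all genes tested. Limma-voom turned the sign of Polk (0.053), Rev3l (−0.093), Rad18 (1.27) and Pcna (0.032), and dropping the filter that of Rev3l (−0.023). A block for the replicate number, which gave 0 calls, turned that of Rad18 (0.46); same-numbered libraries did not deviate together (correlations −0.12, −0.0030, −0.0072 and 0.017), so the numbers were not taken as pairs. The cause of these turns was not tested. Over all genes tested, the median was −0.05 in the main fit. It was 0.046 with limma-voom, −0.16 without the filter and −0.026 with the block. The order of the members per length was the same with the length of the longest transcript and in the controls alone; without control replicate 1 Poli stood above Polk, and without control replicate 3 Primpol stood above Rad18. The median of the members was −0.14 among genes of at least 5 CPM in 4 libraries, −0.093 with limma-voom, −0.062 with the replicate block and −0.077 with all libraries thinned to the smallest. That of the partners was −0.10 when thinned and lay between −0.19 and −0.028 with 1 library omitted. At 3 counts, knockdown-labelled replicate 1, the smallest library, resolves no less than 0.595 CPM.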

Other observations

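For each tested member, the gene with the most similar profile over the 8 libraries was sought among 5433 other genes averaging 10 CPM or more. Likeness was the root mean square difference of log2(CPM + 1) values centred on each gene's own mean, and all profiles share the same libraries and depths. The nearest gene was Rsrc2 for Polh (0.088 log2 units), Dstn for Rev3l (0.14), Snhg9 for Pcna (0.14), Jak1 for Primpol (0.27), B4galnt2 for Rev1 (0.33), Gga3 for Polk (0.45) and Acss2 for Rad18 (0.45). Rsrc2 was at 398, 551, 576 and 417 CPM in knockdown-labelled replicates 1 to 4 and 733, 416, 472 and 561 CPM in control replicates 1 to 4, with control replicate 1 the highest library as for Polh. Acss2, an acetyl-CoA synthetase, was at 0.428 CPM in control replicate 1, where Rad18 had no count. Because these genes were chosen for their likeness over the same 8 libraries, such shared extremes follow from the choice.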
